A study of Mus musculus with 10 samples.

Results

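The nuclear genes for the subunits of the 5 oxidative phosphorylation complexes were followed in myeloid cells of tumor-bearing mice that did or did not carry a deletion of the phosphatase SHP-2. Members were the protein-coding mouse genes (GRCm38) whose symbols begin with Nduf for complex I, Uqcr for complex III, Cox4 to Cox8 for complex IV or Atp5 for complex V, together with Sdha, Sdhb, Sdhc and Sdhd for complex II. Entries ending in -ps and the assembly factors named Ndufaf or Sdhaf were left out. The rule found 86 of the 55421 genes in the count table, with 38 in complex I, 4 in complex II, 8 in complex III, 18 in complex IV and 18 in complex V. It used symbols and no measured value. Atp5o had a second gene entry, which held no counts in any library, and Cox8c held none either. Ndufa4 was counted with complex I by its symbol, although its product is now regarded as a subunit of complex IV. Cyc1, a complex III subunit whose name the rule does not cover, is described with the electron carriers.

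RNA was sequenced from 2 cell types of mice that were 8 to 12 weeks old at tumor implantation, collected 15 days later. Myeloid-derived suppressor cells (MDSC), which are immature cells that restrain T cells, came from the spleen and carried the marker Gr-1, and the study's methods describe them as Ly6G-positive, Ly6C-negative cells purified with magnetic beads. Tumor-associated macrophages (TAM) came from the fibrosarcoma itself and were sorted as live cells with CD45, CD11b and F4/80 and without Ly6G. Shp2f/f mice had a floxed Ptpn11 gene, which encodes SHP-2, and no Cre, whereas Shp2f/fLysMcre mice had the same floxed alleles and Cre under the lysozyme M promoter. That promoter is active in macrophages, monocytes and neutrophils generally, so the deletion was not limited to the cells that were sequenced, and no Cre control without the floxed gene was analysed here. Each MDSC genotype had 2 libraries and each TAM genotype had 3. Nothing in the labels says that the libraries of a group came from separate mice, so p-values measure the spread between these libraries, which may be technical.

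Total counts were between 28844660 and 38222998 per library. Ptpn11 was between 123.3 and 125.6 CPM of the total count (the count scaled to a common library size) in the Shp2f/f TAM and between 46.6 and 50.8 in the Shp2f/fLysMcre TAM, against 102.3 to 117.2 and 87.1 to 97.5 in MDSC. The TAM libraries held the macrophage markers Adgre1 (the gene of F4/80) at 648.9 to 914.2 CPM and Mrc1 at 2365 to 3674 CPM. The MDSC libraries held S100a8 at 3376 to 9292 CPM, but Ly6g, the gene of the marker used to purify them, was at 9.2 to 34.1 CPM while Csf1r, a receptor of monocytes and macrophages, was at 1126 to 1487 CPM. A single MDSC library stood apart. In Shp2f/fLysMcre replicate 2 the 12 genes of the fibroblast and tumor list summed to 784.7 CPM, against 12.7 to 32.1 CPM in the other MDSC libraries.

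Oxidative phosphorylation takes place in the inner mitochondrial membrane. Complexes I and II take electrons from NADH and succinate, complex III passes them to cytochrome c, complex IV reduces oxygen, and complex V (ATP synthase) uses the proton gradient built by complexes I, III and IV to make ATP. A few core subunits are encoded by mitochondrial DNA, and nuclear genes encode the others. In macrophages the pathway is known for its link to activation state, since alternatively activated cells rely on it and cells activated by bacterial products turn toward glycolysis.

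Members differed widely in level, and the same 6 genes led in both cell types, namely Atp5a1, Atp5b, Cox4i1, Cox6a1, Cox6b1 and Cox8a. Levels are compared between genes as CPM per kilobase of exon, the count scaled to library size and length. In Shp2f/f TAM the median was 37.7 CPM per kb in complex I, 80.6 in complex II, 84.5 in complex III, 70.9 in complex IV and 56.0 in complex V. Atp5a1 (295.1 CPM per kb) and Atp5b (286.8), which encode the catalytic head of ATP synthase, and Cox8a (289.7), a small subunit of complex IV, were the 3 highest members of the TAM group. The levels of these 3 were 295.0, 185.5 and 358.3 CPM per kb in Shp2f/f MDSC. In complex I the highest were the accessory subunits Ndufa2 (112.1 CPM per kb in TAM) and Ndufa1 (100.2), ahead of Ndufc2 (89.3). The lowest of complex I were Ndufb4 (3.84 CPM per kb), Ndufb2 (4.24) and Ndufab1 (4.25), the last being the mitochondrial acyl carrier protein, and Ndufb2 and Ndufab1 have long annotated exon unions that lower this measure. Uqcr10 led complex III at 137.6 CPM per kb and Uqcrq was lowest at 44.2. In complex V the lowest were Atp5s (1.48 CPM per kb), a coupling factor, and Atp5l (3.45), with Atp5g1 (12.4) next.

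The members' promoters are shown because many members moved together in TAM, as described next. RefSeq windows (GRCm38.p6) of 250 bases before to 50 after the start were at hand for 69 of the 85 member symbols, and 17492 protein-coding genes had such a window. In 61 of the 69 the bases after the start lay in a GENCODE transcript of the gene. The windows of Atp5g1 and of Atp5g2, the latter printed below, were not among these, so their starts are uncertain. Where a gene had several windows, the one nearest the GENCODE start was used for members and the first listed for all genes. The windows of all genes were taken without regard to expression. The ETS core CCGGAAG, searched on both strands, was found in 21.74% of the member windows and 11.9% of all windows. The NRF1 palindrome, which is GCGCA followed by its reverse complement, was found in 7.25% against 1.32%, and the YY1 motif AAGATGGC in 13.0% against 3.22%. The TATA box letters TATAAA were found in 10.1% against 13.3%, and the median GC content was 57.3% against 56.3%. Among the 43 windows of members that were lower in Shp2f/fLysMcre TAM and the 24 of members tested and not lower, the ETS core was in 23.3% and 20.8%, the NRF1 palindrome in 6.98% and 8.33%, the YY1 motif in 11.6% and 16.7%, and the TATA box letters in 2.33% (1 window) and 16.7% (4 windows). A match is a run of letters and not a bound site. The 6 sequences run from 150 bases before to 30 after the annotated start, and capitals mark the motif matches. For each of the ETS, NRF1 and YY1 motifs, members with the largest falls in TAM were taken from those holding it in this stretch. Their holding a motif was thus fixed by the choice, and Cox6b2 was added to them. Atp5g1, Uqcr10, Uqcrfs1 and Ndufa4, with larger falls than these, hold none of the motifs in their windows. Uqcr11, at chr10:80406792-80406971 (minus strand), Sdhb, at chr4:140961121-140961300 (plus strand), Atp5g2, at chr15:102671018-102671197 (minus strand), Atp5k, at chr5:108434370-108434549 (minus strand), and Ndufc1, at chr3:51408926-51409105 (minus strand), were lower in TAM and each hold at least 1 of the ETS, NRF1 and YY1 motifs. Cox6b2, at chr7:4753065-4753244 (minus strand), rose in both cell types and holds none of them.
Uqcr11: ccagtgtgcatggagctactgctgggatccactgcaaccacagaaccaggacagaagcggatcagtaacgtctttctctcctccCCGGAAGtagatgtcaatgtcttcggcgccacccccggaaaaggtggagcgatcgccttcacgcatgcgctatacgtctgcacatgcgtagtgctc
Sdhb: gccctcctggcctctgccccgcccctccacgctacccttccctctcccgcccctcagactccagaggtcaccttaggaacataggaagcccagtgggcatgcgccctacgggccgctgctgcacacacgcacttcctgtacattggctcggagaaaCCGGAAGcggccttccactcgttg
Atp5g2: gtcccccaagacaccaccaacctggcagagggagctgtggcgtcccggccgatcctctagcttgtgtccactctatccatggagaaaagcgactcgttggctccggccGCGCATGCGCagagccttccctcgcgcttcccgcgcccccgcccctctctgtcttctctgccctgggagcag
Atp5k: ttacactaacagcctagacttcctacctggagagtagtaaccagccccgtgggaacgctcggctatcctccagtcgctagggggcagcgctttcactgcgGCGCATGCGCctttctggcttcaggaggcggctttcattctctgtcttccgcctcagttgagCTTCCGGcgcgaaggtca
Ndufc1: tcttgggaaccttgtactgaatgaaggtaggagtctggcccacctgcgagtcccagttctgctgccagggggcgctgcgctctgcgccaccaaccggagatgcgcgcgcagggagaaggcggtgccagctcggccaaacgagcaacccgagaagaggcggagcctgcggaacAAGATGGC
Cox6b2: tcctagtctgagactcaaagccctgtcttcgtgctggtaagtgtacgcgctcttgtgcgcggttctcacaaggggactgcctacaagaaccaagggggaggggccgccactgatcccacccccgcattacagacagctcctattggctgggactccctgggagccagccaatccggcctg

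The genotypes were compared in TAM to ask how the loss of SHP-2 changed the pathway's transcripts in tumor macrophages. The members were lower as a body, by a modest amount. Of 81 members tested, 53 fell in Shp2f/fLysMcre TAM, 2 rose and 26 did not pass (edgeR quasi-likelihood test, BH-adjusted p under 0.05). Over all 14446 genes tested, 50.2% were called, 26.3% falling and 23.9% rising. The median log2 fold change was -0.21 over the members and -0.01 over all genes tested. The 5 members that were not tested had too few counts, and 75 of the 81 had a mean of at least 10 CPM. Of these 75, 53 fell and 73 had a log2 fold change below 0, the exceptions being Ndufc2 and Ndufv3. The groups did not overlap for 55 of the 81 members, against 58.2% of all genes tested. At 10 CPM or more they did not overlap for 53 of the 75 members and for 5896 of all 8600 genes, which are similar shares. Of these 8600 genes 62.9% were called, 2608 falling and 2798 rising. In bulk RNA, fewer cells of a type and less RNA per cell cannot be told apart.

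**Figure D1:**
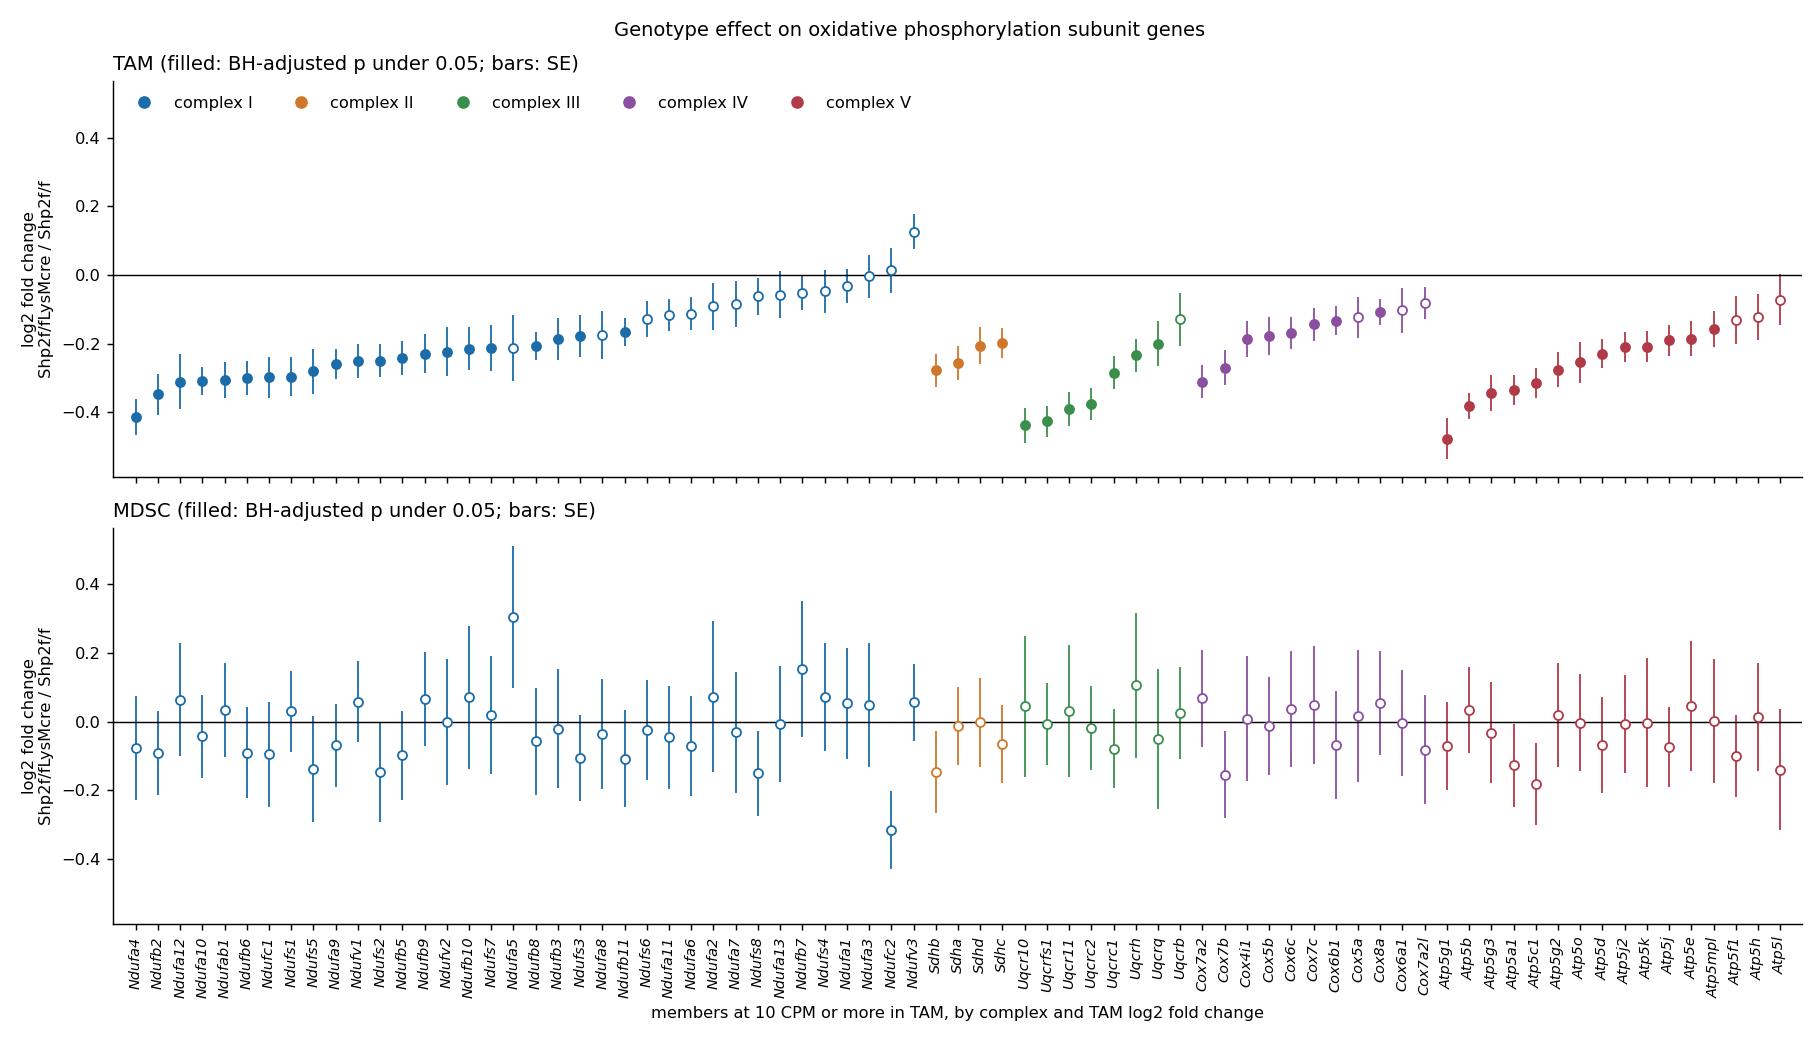
Log2 fold change of Shp2f/fLysMcre against Shp2f/f for the 75 members at 10 CPM or more in TAM, by complex, with TAM above (n = 3 libraries per genotype) and MDSC below (n = 2 per genotype). Bars are standard errors and filled points passed the test; 53 TAM points are filled and lie below 0, and none of the MDSC points is filled.

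The size of the fall differed between libraries of the deleted genotype. Relative to the mean of the Shp2f/f TAM libraries, the median of the 75 members on the log2 scale was -0.12, -0.23 and -0.30 in Shp2f/fLysMcre replicates 1, 2 and 3. It was -0.01, 0.02 and 0.0047 in the Shp2f/f replicates. The 3 deleted libraries were thus all below the controls, with replicate 1 nearest to them. Summed over all members, the TMM-scaled CPM was 9466, 9718 and 9552 in Shp2f/f (9579 ± 128, SD, n = 3) and 8613, 7980.3 and 7612 in Shp2f/fLysMcre (8069 ± 506, SD, n = 3). As a share of all counts the members took 0.982% to 1.001% in the Shp2f/f libraries and 0.744% to 0.824% in the deleted libraries. The fit of TAM alone had a biological coefficient of variation of 0.0595. A single fit of all 10 libraries, whose spread is raised by MDSC, called 22 members, 21 of them lower, and 29.2% of all genes, 13.4% lower.

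**Figure D2:**
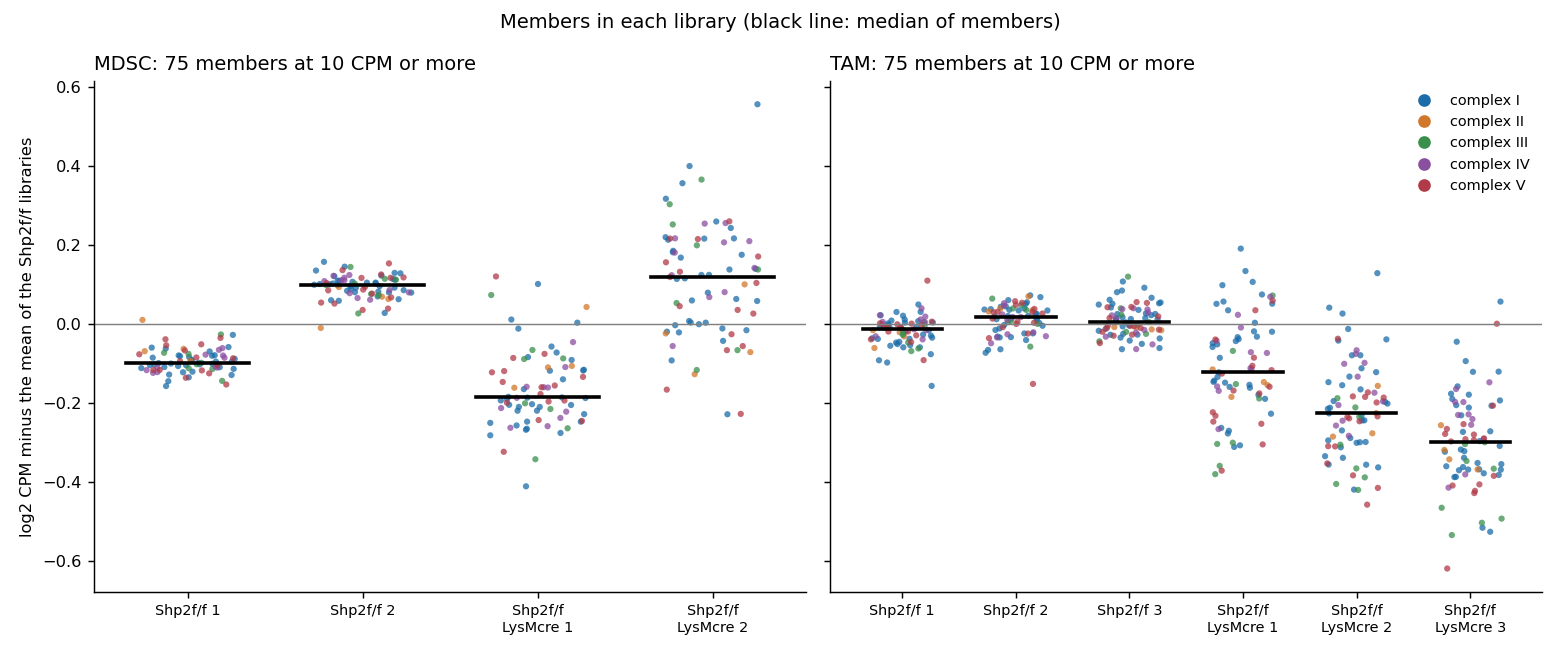
Log2 CPM of each member at 10 CPM or more minus the mean of the Shp2f/f libraries of that cell type, with a point per member and a column per library; black lines are medians over the 75 members. In TAM the 3 Shp2f/fLysMcre medians lie between -0.12 and -0.30, and in MDSC the replicates of each genotype lie on opposite sides of 0.

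Complex I, the NADH dehydrogenase, had 21 of 37 tested members lower and none higher, with a median log2 fold change of -0.21. The largest fall belonged to Ndufa4, at 110.2, 106.1 and 107.4 CPM in Shp2f/f and 87.2, 80.7 and 74.9 CPM in Shp2f/fLysMcre TAM. All 3 deleted libraries were below all controls, and the log2 fold change was -0.41 (SE 0.0511, edgeR BH-adjusted p = 4.94e-05). Core subunits fell as well. Ndufs1, which carries iron-sulfur clusters, was 122.2 ± 4.01 CPM in Shp2f/f and 99.5 ± 8.50 CPM in Shp2f/fLysMcre (SD over 3 libraries in each), and the fitted log2 difference was -0.30 (SE 0.0565, edgeR BH-adjusted p = 0.00113). Ndufv1, which binds NADH, was 104.1 ± 3.68 and 87.5 ± 5.89 CPM (SD over 3 libraries in each), and the fitted log2 difference was -0.25 (SE 0.0505, edgeR BH-adjusted p = 0.00163). Ndufv3 went the other way without passing, at 49.99, 48.4 and 53.5 CPM against 57.7, 55.3 and 52.6 CPM (log2 fold change 0.13, SE 0.0514, edgeR BH-adjusted p = 0.0623). Its groups overlapped. Ndufa1 (-0.03) and Ndufc2 (0.01) had log2 fold changes close to 0, and neither passed.

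Complex II, succinate dehydrogenase, is wholly nuclear and links the tricarboxylic acid cycle to the respiratory chain. All 4 of its genes fell, with changes of -0.20 to -0.28 on the log2 scale. Sdhb, the iron-sulfur subunit, was 165.2, 173.6 and 167.9 CPM in Shp2f/f and 148.6, 138.5 and 130.8 CPM in Shp2f/fLysMcre TAM. The groups did not overlap, and its log2 fold change was -0.28 (SE 0.0486, edgeR BH-adjusted p = 0.000638). Sdha, the flavoprotein that oxidizes succinate, went from 353.7 ± 6.78 to 296.1 ± 19.7 CPM (SD over 3 libraries in each), a log2 difference of -0.26 (edgeR BH-adjusted p = 0.00118). The membrane anchors Sdhc and Sdhd had log2 fold changes of -0.20 (edgeR BH-adjusted p = 0.00311) and -0.21 (edgeR BH-adjusted p = 0.00732).

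Complex III had the largest median change of the 5 complexes, at -0.33, and 7 of its 8 genes fell. Uqcrfs1, the Rieske iron-sulfur protein, was 145.0, 152.8 and 145.8 CPM in Shp2f/f and 115.2, 110.5 and 104.3 CPM in Shp2f/fLysMcre TAM. The libraries of the genotypes were well apart, and the log2 fold change was -0.43 (SE 0.0447, edgeR BH-adjusted p = 1.42e-05). The small subunit Uqcr10 changed most, from 80.3 ± 3.70 to 59.2 ± 3.35 CPM (SD over 3 libraries in each), and the fitted log2 difference was -0.44 (SE 0.0509, edgeR BH-adjusted p = 3.09e-05). Uqcr11 was at 59.6, 59.9 and 59.7 CPM in the controls and at 48.4, 45.6 and 42.4 CPM in the deleted libraries, a log2 fold change of -0.39 (edgeR BH-adjusted p = 6.06e-05). The core proteins Uqcrc1 and Uqcrc2 had log2 fold changes of -0.29 (edgeR BH-adjusted p = 0.000495) and -0.38 (edgeR BH-adjusted p = 5.53e-05). Uqcrb was the member that did not pass, at 64.3, 66.8 and 68.3 CPM against 69.8, 58.3 and 54.0 CPM, where replicate 1 of the deleted genotype was the highest of the 6 libraries.

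Complex IV, cytochrome c oxidase, had 8 of 15 tested genes lower and 2 higher, with a median of -0.13. Most of its common subunits fell by less than the median of all members (-0.21), while Cox7a2 and Cox7b fell by more. Cox4i1 was 329.0, 326.3 and 316.8 CPM in Shp2f/f and 307.9, 281.0 and 264.7 CPM in Shp2f/fLysMcre TAM, without overlap, for a log2 fold change of -0.19 (SE 0.0527, edgeR BH-adjusted p = 0.0118). Among the genes with a Cox symbol Cox7a2 fell most, from 117.8 ± 4.26 to 94.9 ± 5.70 CPM (SD over 3 libraries in each). Its fitted log2 difference was -0.31 (SE 0.0488, edgeR BH-adjusted p = 0.000296). Cox7b had a log2 fold change of -0.27 (edgeR BH-adjusted p = 0.00114). Cox6b1 (-0.13) and Cox8a (-0.11) passed with smaller changes. Cox5a (-0.12), Cox6a1 (-0.10) and Cox7a2l (-0.08) did not pass.

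The isoforms of complex IV that are restricted to certain tissues were scarce in both cell types. Cox4i2, the isoform known from lung and hypoxic cells, was 0.496, 0.356 and 0.431 CPM in Shp2f/f TAM and 1.18, 0.566 and 1.13 CPM in Shp2f/fLysMcre TAM. Its log2 fold change of 1.15 (SE 0.331, edgeR BH-adjusted p = 0.013) was a rise from 14 to 17 counts per library to 20 to 38 counts. Cox6b2, the testis isoform, was at 14 to 22 counts in the Shp2f/f TAM libraries and 22 to 27 in the deleted ones, a rise of 0.80 (SE 0.269, edgeR BH-adjusted p = 0.0292). Cox6b2 was at most 0.836 CPM in a TAM library, whereas Cox6b1 was at 154.8 ± 3.42 CPM (SD, n = 3) in Shp2f/f TAM. The muscle isoforms Cox6a2 (log2 fold change 0.24, edgeR BH-adjusted p = 0.533) and Cox7a1 (-0.19, edgeR BH-adjusted p = 0.374) did not pass. Cox8b and Cox7b2 had 2 counts each over all 10 libraries and Cox8c had 0. Ndufa4l2, a hypoxia-induced relative of Ndufa4, had at most 15 counts in a library and was tested in the comparison of the genotype effects alone.

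**Figure D3:**
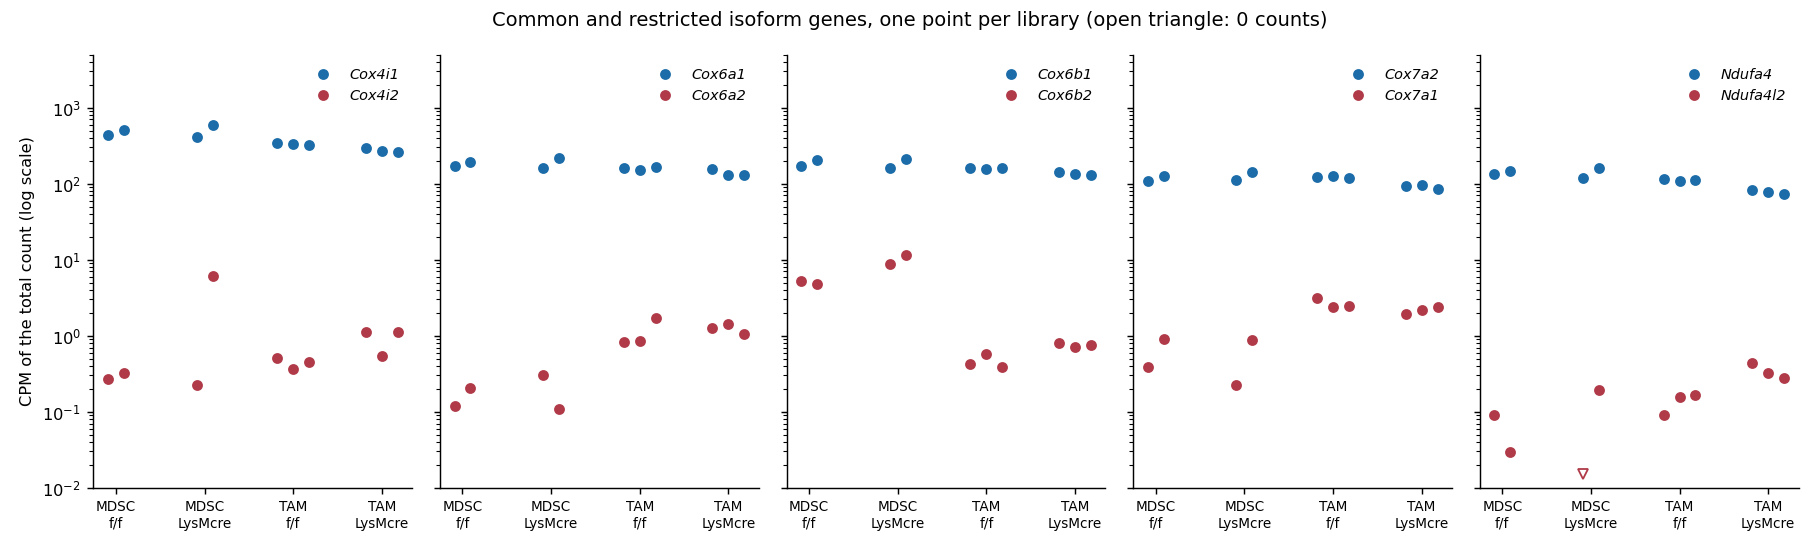
CPM of the total count, on a log scale, for 5 pairs of a common isoform (blue) and a restricted isoform (red), with a point per library in each of the 4 groups; an open triangle marks 0 counts. Each restricted isoform lies far below its common partner in all 10 libraries, and the point of Cox4i2 near 6 CPM is MDSC Shp2f/fLysMcre replicate 2.

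Complex V had 13 of 17 tested genes lower, none higher, and a median of -0.23. Atp5b, the catalytic beta subunit and the most abundant member by CPM in TAM, was 1207, 1241 and 1198 CPM in Shp2f/f and 983.4, 911.2 and 902.9 CPM in Shp2f/fLysMcre. No library of either genotype came near the other, and the log2 fold change was -0.38 (SE 0.0392, edgeR BH-adjusted p = 1.19e-05). Atp5a1, the alpha subunit, went from 925.0 ± 22.3 to 733.6 ± 41.5 CPM (SD, n = 3 each), a log2 fold change of -0.33 (SE 0.0439, edgeR BH-adjusted p = 7.84e-05). The genes Atp5g1, Atp5g2 and Atp5g3 encode the same mature subunit c of the rotor. Atp5g1 was at 60.1, 59.5 and 63.3 CPM in the controls and 47.1, 44.4 and 39.7 CPM in the deleted libraries, and its log2 fold change of -0.48 (SE 0.0596, edgeR BH-adjusted p = 5.31e-05) was the largest fall of any member. Atp5g3, the most abundant of the 3, had a log2 fold change of -0.34 (edgeR BH-adjusted p = 0.000207) and Atp5g2 had -0.28 (edgeR BH-adjusted p = 0.000906). Atp5h (-0.12) and Atp5l (-0.07) did not pass. Subunit c genes and several small subunits have processed pseudogenes, and how reads with several matches were counted was not stated, so their counts are uncertain to that extent.

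Summed by complex, TMM-scaled CPM in TAM went from 2333 ± 29.9 to 2047 ± 143 for complex I, from 841.1 ± 21.9 to 712.1 ± 43.4 for complex II and from 958.7 ± 15.9 to 769.7 ± 51.4 for complex III (SD, n = 3 each). It went from 1598 ± 0.913 to 1429.6 ± 87.1 for complex IV and from 3848 ± 65.9 to 3111 ± 183 for complex V. On the log2 scale the sums differed by -0.19, -0.24, -0.32, -0.16 and -0.31 for complexes I to V. The 3 deleted libraries were below the 3 controls in each of the 5 sums. With 3 against 3 libraries the smallest two-sided p of an exact permutation test is 0.10, so that test could not pass for a sum, and the sums are given as a description. Scaled by total counts instead, the log2 differences were -0.29, -0.34, -0.42, -0.26 and -0.41, and the median of all genes tested was then -0.11 and that of the members -0.30.

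**Figure D4:**
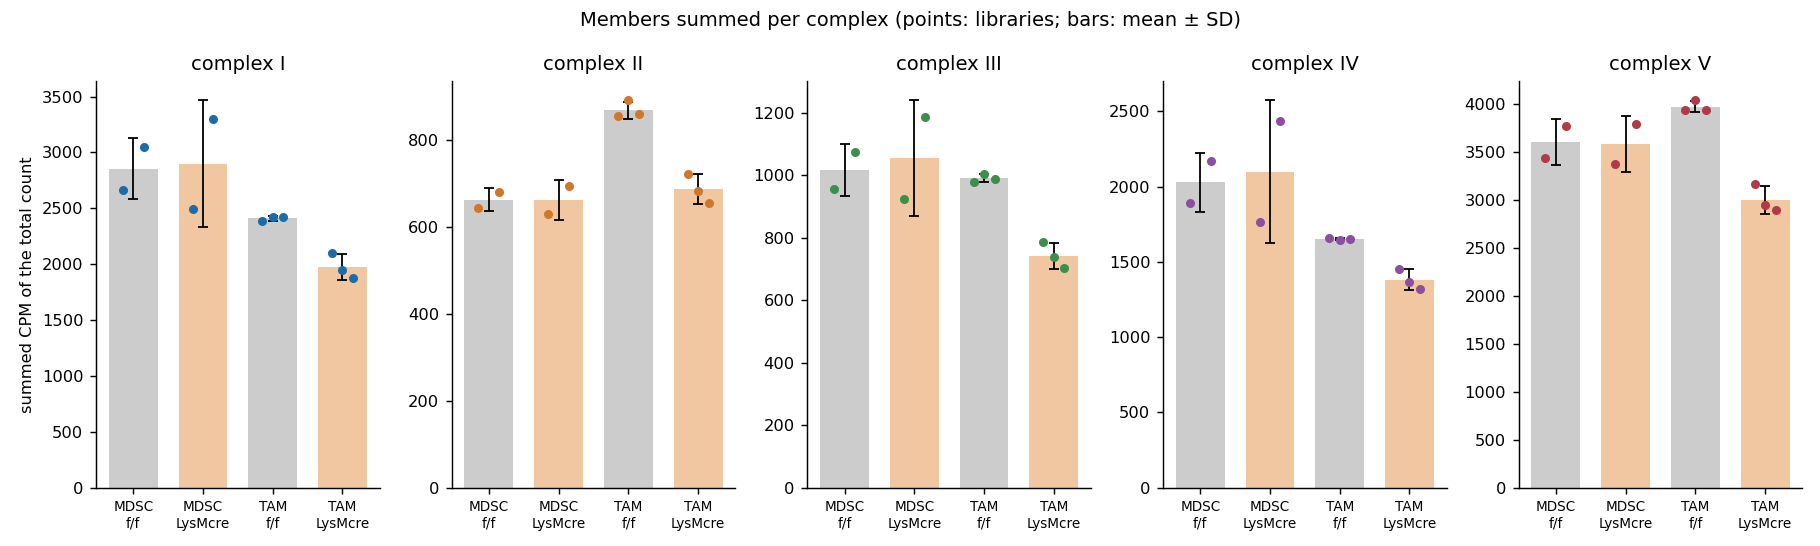
Members summed per complex, in CPM of the total count, with a bar for the mean of each of the 4 groups, SD as error bars and a point per library (2 per MDSC group, 3 per TAM group). In every complex the Shp2f/fLysMcre TAM points lie below the Shp2f/f TAM points, and the MDSC groups overlap.

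Genes that build, feed or control the complexes were read from lists beside the members. Over all 14446 genes tested in TAM, 50.2% were called, 26.3% falling and 23.9% rising. In TAM, 10 of 17 tested assembly factors of complex I fell and 2 rose. Among them Ndufaf4 fell most (log2 fold change -0.55, edgeR BH-adjusted p = 1.68e-05) and Tmem126b rose most (0.32, edgeR BH-adjusted p = 0.00188). For complexes II and III, 4 of 10 assembly factors fell, led by Uqcc2 (-0.36), and Sdhaf2 rose by 0.13. For complex IV, 10 of 21 fell and none rose, led by Lrpprc (-0.47), which binds mitochondrial mRNA. For complex V, Fmc1 (-0.48) and Tmem70 (-0.34) fell out of 4. The share of assembly factors called for complexes II to V was thus near that of all genes. Of 7 electron carriers and dehydrogenases 4 fell, among them Cyc1 (-0.42, edgeR BH-adjusted p = 2.40e-05) and Cycs, which encodes cytochrome c (-0.34, edgeR BH-adjusted p = 0.000101).

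The tricarboxylic acid cycle fell nearly throughout in TAM, with 13 of 14 genes lower and a median of -0.30, from -0.12 in Ogdh to -0.56 in Idh3a. Of 11 tested regulators of mitochondrial genes 6 fell and none rose. The largest of these falls was that of Ppargc1b (-0.51, edgeR BH-adjusted p = 2.03e-05), a coactivator of mitochondrial genes, followed by its relative Pprc1 (-0.49, edgeR BH-adjusted p = 6.21e-05), while Nrf1 (-0.03), Gabpa (-0.11), Yy1 (0.06) and Esrra (0.04) did not pass. The share called was lower than the 50.2% of all genes for the subunits encoded by mitochondrial DNA. Of 8 tested 3 fell, led by mt-Cytb (-0.52, edgeR BH-adjusted p = 0.00448). Their sum was 9877 to 10479 CPM in the Shp2f/f libraries and 5236, 8469.8 and 8882 CPM in Shp2f/fLysMcre replicates 1, 2 and 3. The deleted library with the highest nuclear members, replicate 1, thus had the lowest mitochondrially encoded sum.

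Other cell programs moved with genotype in the same TAM libraries. All 18 proliferation genes fell, with sums of 1619 to 1631 CPM in Shp2f/f and 900.7 to 955.3 CPM in Shp2f/fLysMcre, and all 6 TAM markers rose, with sums of 8081 to 8316 and 11026 to 11367 CPM. The 8 tested pancreatic islet genes fell, with sums from 1349.5, 887.1 and 6945 CPM to 78.2, 6.19 and 6.48 CPM, and all 9 islet genes had counts in the 3 control libraries. Of 12 T and NK cell genes 11 fell, while Cd4 rose. The T and NK sum, which Cd4 dominates, was 35.4 to 36.5 CPM in the controls and 56.6 to 57.7 CPM in the deleted libraries. The fibroblast and tumor sum was 326.7 to 333.1 CPM in the controls and 285.1 to 292.1 CPM in the deleted libraries. The erythroid sum was lower in the deleted libraries, at 190.6 to 204.4 CPM against 439.8 to 478.0 CPM, but its genes went both ways. Of its 7 tested genes 3 rose and 2 fell in the deleted libraries, with a median log2 fold change of 0.76. Sums were higher there for B cell genes (48.5 to 52.1 against 21.9 to 23.3 CPM), endothelial genes (107.3 to 112.8 against 73.5 to 77.3 CPM) and MDSC markers (362.0 to 389.6 against 257.9 to 264.1 CPM). The part of these differences in the fall of the members was not tested. Without Shp2f/f replicate 3, which had the most islet RNA, 43 members and 22.0% of all genes tested were called lower and the members' median was -0.20, with islet RNA also in the other two control libraries.

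In MDSC the members showed no shared shift with genotype. Of 80 members tested, 1 rose in Shp2f/fLysMcre and none fell, whereas 4.28% of all 14806 genes tested were called, 3.76% rising and 0.520% falling (edgeR quasi-likelihood test, BH-adjusted p under 0.05). At an unadjusted p under 0.05 there were 2 members and 2859 of all genes tested, and DESeq2 called 2 members and 8.48% of all genes. Members and all genes tested both had a median of -0.01. The groups did not overlap for 5 of the 80 members, against 49.1% of all genes tested. The standard error of a member was at the median 0.152, against 0.0516 in TAM. A change of the size seen in TAM was thus not detectable at the spread of this fit. The fit held no term for replicate number, so any difference shared by same-numbered libraries counts toward that spread. The member called was Cox6b2, at 5.28 and 4.88 CPM in Shp2f/f and 9.08 and 11.0 CPM in Shp2f/fLysMcre MDSC. The genotypes did not overlap, and its log2 fold change was 0.98 (SE 0.181, edgeR BH-adjusted p = 0.0499). That value lies at the threshold and was lost under other scalings and when either Shp2f/f library was left out. Among the core subunits, Sdha was 254.8 and 251.2 CPM against 260.6 and 240.7 CPM, and Atp5a1 was 881.8 and 967.9 CPM against 870.2 and 823.1 CPM.

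Replicates of MDSC differed among themselves over the whole pathway. Replicate 2 of Shp2f/f was above replicate 1 for 74 of the 75 members at 10 CPM or more, with medians of 0.098 and -0.098 around their mean. In Shp2f/fLysMcre the medians were -0.19 in replicate 1 and 0.12 in replicate 2, the library with the fibroblast and tumor transcripts. Replicate 2 was thus above replicate 1 in both genotypes, and whether the numbers mark a pairing was not tested. Leaving out replicate 1 of the deleted genotype moved the members' median to 0.096 and leaving out replicate 2 moved it to -0.19. The largest fitted change in MDSC belonged to Cox4i2, with a log2 fold change of 3.28 that did not pass (SE 1.36, edgeR BH-adjusted p = 0.277). It rests on a single library, since the 4 MDSC libraries held 9, 11, 8 and 220 counts, and the 220 were in that same replicate 2. Without it the value was -0.41. Ndufc2 had the lowest value, at 58.5 and 60.8 CPM in Shp2f/f and 44.9 and 50.9 CPM in Shp2f/fLysMcre, for a log2 fold change of -0.32 that did not pass (SE 0.114, edgeR BH-adjusted p = 0.218). Of the lists above, none of the assembly, carrier, regulator, mitochondrially encoded or tricarboxylic acid cycle genes was called in MDSC, while 14 of 18 proliferation genes, 12 of 14 erythroid genes and 3 of 6 MDSC markers rose. In MDSC 1 of 12 T and NK cell genes rose as well, and 3 of 8 B cell genes and 3 of 8 pancreatic acinar genes fell. Over all genes tested in MDSC, 4.28% were called, 3.76% rising and 0.520% falling.

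The difference between the genotype effects of the cell types was tested as an interaction over all 10 libraries. Of 82 members tested, 3 had a lower effect in TAM than in MDSC and none had a higher effect, whereas 24.9% of 16581 genes tested were called, 12.7% lower and 12.2% higher (edgeR quasi-likelihood test, BH-adjusted p under 0.05). They were Uqcrfs1 (-0.39, SE 0.105, edgeR BH-adjusted p = 0.0235), Atp5b (-0.39, SE 0.0984, edgeR BH-adjusted p = 0.0184) and Uqcrc2 (-0.33, SE 0.103, edgeR BH-adjusted p = 0.0442). In TAM these 3 fell as given above, and in MDSC their log2 fold changes were -0.01 (SE 0.12), 0.03 (SE 0.125) and -0.02 (SE 0.121). The interaction fit pooled the spread of both cell types. Its biological coefficient of variation was 0.141, against 0.189 in MDSC alone and 0.0595 in TAM alone. The standard errors of the 3 differences were therefore smaller than those of the MDSC effects alone, and their p-values may be too small. Atp5b in MDSC was 764.8 and 807.2 CPM in Shp2f/f and 854.1 and 755.7 CPM in Shp2f/fLysMcre, so that the genotypes overlapped there and did not in TAM. Over all genes tested the difference was below 0 for 8420 of 16581, with a median of -0.01 (0.093 at 10 CPM or more). It was below 0 for 75 of the 82 members, with a median of -0.14 (also -0.14 at 10 CPM or more). Without MDSC Shp2f/fLysMcre replicate 1, 30 members were called along with 39.0% of all genes tested in that fit, and without MDSC Shp2f/fLysMcre replicate 2 the median was 0.026. Without MDSC Shp2f/f replicate 1 or TAM Shp2f/fLysMcre replicate 2 no member was called, and 1 was called without MDSC Shp2f/f replicate 2, TAM Shp2f/f replicate 2 or TAM Shp2f/fLysMcre replicate 3. Both cell types were taken from the same mice according to the study's methods, but the labels do not tie libraries to mice, so the fit treated the libraries as independent.

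The cell types themselves were compared in Shp2f/f mice. Members went both ways, with 22 of 81 higher in TAM than in MDSC and 35 lower, whereas 78.8% of 15659 genes tested were called, 40.0% higher and 38.8% lower, so the share of members called was not above the background (edgeR quasi-likelihood test, BH-adjusted p under 0.05). The median was -0.10, against 0.01 for all genes tested. The balance of directions moved with a term for gene length. The members are short, with a median of 1.68 kb of exon against 4.72 kb for all genes at 10 CPM or more, and non-member genes under 1 kb had a median of -0.43 while those of 4 kb and over had 0.096. With a length term for each library, an alternative chosen after seeing the data, 42 members were higher and 23 lower, with a median of 0.14. The share of all genes called with this term is not given here, so these counts are not read as particular to the members. Called falls of Cox6a1, Cox6b1, Cox8a, Ndufa2, Ndufa8, Ndufa11 and Atp5k then had the opposite sign. Without MDSC Shp2f/f replicate 2, 33 members were higher and 31 lower, with a median of 0.019.

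**Figure D5:**
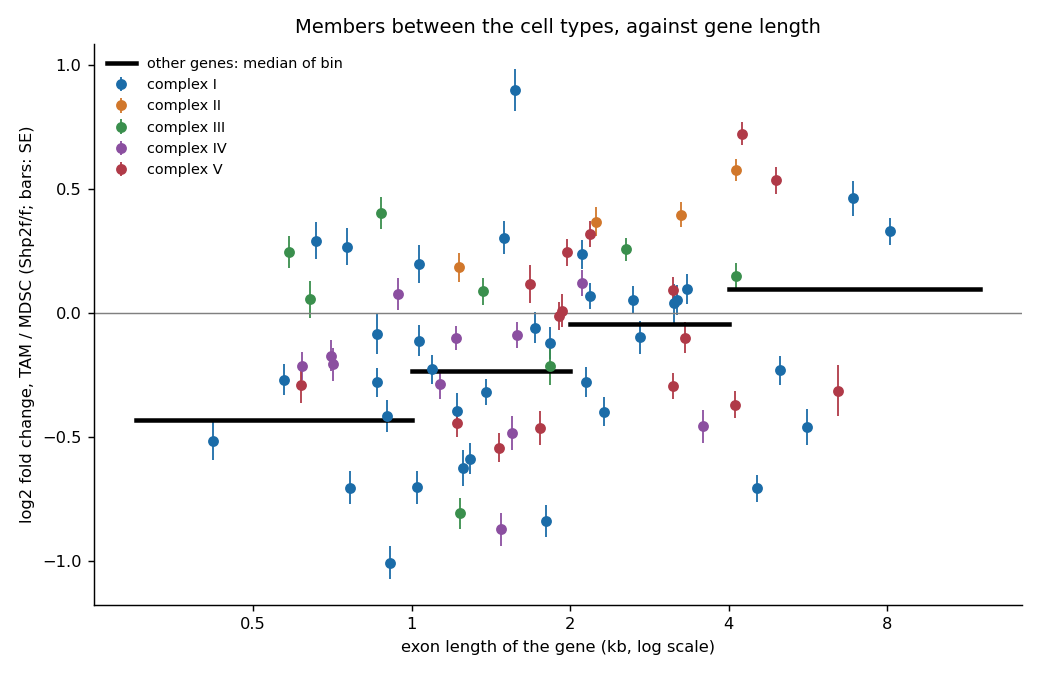
Log2 fold change of TAM against MDSC in Shp2f/f mice for the 75 members at 10 CPM or more, against exon length on a log axis, coloured by complex with standard errors; black bars are the medians of the other genes in 4 length bins. The medians of other genes go from -0.43 under 1 kb to 0.096 at 4 kb and over, and members scatter around them in both directions.

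The changes called here kept their direction with the length term. All 4 complex II genes were higher in TAM. Sdha was 249.2 and 244.4 CPM in MDSC and 363.8, 376.7 and 363.7 CPM in TAM, without overlap, for a log2 fold change of 0.58 (SE 0.0457, edgeR BH-adjusted p = 1.92e-06). Atp5b was 748.1 and 785.2 CPM in MDSC and 1255, 1293 and 1246 CPM in TAM, for a log2 fold change of 0.72 (SE 0.0466, edgeR BH-adjusted p = 4.32e-07). Its partner Atp5a1 did not pass (0.09, edgeR BH-adjusted p = 0.125). Atp5g1 was higher by 0.54 (edgeR BH-adjusted p = 1.28e-05), and Ndufa12, at 16.4 and 19.5 CPM in MDSC and 31.7, 33.7 and 34.95 CPM in TAM, by 0.90 (edgeR BH-adjusted p = 5.96e-06). Lower in TAM were Ndufb11 (-1.01, edgeR BH-adjusted p = 5.69e-07), Cox7a2l (-0.87, edgeR BH-adjusted p = 1.33e-06), which helps complexes III and IV associate, Ndufa6 (-0.84), Uqcrh (-0.81) and Atp5h (-0.54). Ndufb11 was at 114.5 and 135.0 CPM in MDSC and at 60.1, 63.0 and 63.1 CPM in TAM.

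Restricted isoforms differed most between the cell types, at low levels. Cox6b2 was 5.16 and 4.75 CPM in MDSC and 0.425, 0.582 and 0.392 CPM in TAM, a log2 fold change of -3.39 (SE 0.216, edgeR BH-adjusted p = 3.95e-07). Cox7a1, the heart and muscle isoform, was 0.388 and 0.884 CPM in MDSC and 3.10, 2.38 and 2.49 CPM in TAM (2.05, SE 0.324, edgeR BH-adjusted p = 0.000267). Cox6a2 was at 4 and 7 counts in the MDSC libraries and 27 to 62 in TAM (2.78, SE 0.503, edgeR BH-adjusted p = 0.000649). Summed endothelial and fibroblast or tumor markers were also higher in TAM, although TAM were gated on CD45 and F4/80. They were at 73.5 to 77.3 CPM against 24.8 to 25.9 CPM and at 326.7 to 333.1 CPM against 12.7 to 32.1 CPM. All 9 pancreatic islet genes were called higher in TAM. Their sums were 1349.5, 887.1 and 6945 CPM in TAM replicates 1, 2 and 3, against 7.997 and 7.02 CPM in MDSC. Cox6a2 had 27, 33 and 62 counts in those TAM replicates. Over all genes tested between the cell types, 78.8% were called, 40.0% higher and 38.8% lower in TAM. Other lists were lower in TAM, with 13 of 14 erythroid, 8 of 8 B cell and 8 of 8 acinar genes called. The part of such RNA in the isoform values was not tested. Beside the members, 10 of 14 tricarboxylic acid cycle genes were higher in TAM and 2 lower, Ppargc1b was higher by 4.67 and Cyc1 by 0.88 (edgeR BH-adjusted p = 9.94e-08), while 5 of 8 tested mitochondrially encoded subunits were lower and 1 was higher.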

How the data were processed

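RNA from 10 samples in 4 groups was analysed, with group and replicate read from each title. The authors trimmed reads with cutadapt 2.5, aligned them with STAR 2.7.3a to GRCm38 and assigned them to genes with featureCounts (Subread 1.6.2), and they deposited raw counts per gene, which were used here; the setting for strand and for reads with several matches is not given in the sources used here. The authors' table of values divided by DESeq2 size factors was not used. Gene models came from GENCODE M21, which matched 99.67% of the identifiers. The test was that of edgeR 4.0.16, run in R 4.3.3 (TMM, filterByExpr with a minimum count of 10, quasi-likelihood F test) within each cell type, as an interaction over all libraries, and between the cell types in Shp2f/f mice. P-values were adjusted over all genes tested by the Benjamini-Hochberg method and called under 0.05, and a standard error is the log2 fold change divided by the root of F. CPM is TMM-scaled within each comparison unless CPM of the total count is named, and sums over lists and markers are of the total count. Depth is the total count per library, and counting error covers reads only. The scripts were tested on simulated data.

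The members, the gene lists and the naming rule were chosen with earlier results of these data known. By that rule the text names, per comparison and complex, the largest called rise and fall at a mean of at least 10 CPM, the complex II genes, 8 core subunits, the restricted isoforms with their common partners, the subunit c genes, and the 3 highest and lowest members per kb; the ATP synthase inhibitor does not carry an Atp5 symbol here and is not reported. From each list it names the called genes with the largest rise and fall. Uqcr11, Ndufv3, Ndufa6, Ndufa8, Ndufa11, Ndufc1, Atp5k, Cox7b and Cox7b2 were named after their values were seen. So were, from the lists, Tmem70, Cycs, Pprc1, Nrf1, Gabpa, Yy1, Esrra and Ogdh. Alternatives were DESeq2 1.42.0, its size factors in edgeR, total count scaling, a fit without the 20 most abundant genes, other count filters, a threshold of 0.01, a replicate block, a single fit of all libraries and leaving out each library; a length term (per library, a loess of the log2 deviation on log2 exon length, as an offset) and limma voom (limma 3.58.1) with weights per cell type were chosen after seeing the data. Correlations of the deviations of same-numbered MDSC and TAM libraries did not pair the samples.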

Additional observations from a re-analysis of the deposited data

Results flagged for a closer look

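Of the members, 3 had genotype effects that differed between the cell types in the interaction test, or 3 of 82 tested, whereas 24.9% of all 16581 genes tested differed. The effect in TAM minus that in MDSC was -0.39 on the log2 scale for Atp5b, -0.33 for Uqcrc2 and -0.39 for Uqcrfs1 (edgeR quasi-likelihood, BH-adjusted p = 0.0184, 0.0442 and 0.0235). The fit pooled the spread of both cell types, so these p-values may be too small. Each of the 3 genes fell in 3 of 3 Shp2f/fLysMcre TAM libraries and had a log2 fold change between -0.02 and 0.03 in MDSC. All 3 calls were lost without MDSC Shp2f/f replicate 1 or TAM Shp2f/fLysMcre replicate 2. No group had 4 or more libraries, so single libraries were not tested as outliers.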

How the results depend on the processing

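In TAM, 53 of the 55 calls were falls, and 52 or 53 members were called lower with DESeq2, its size factors, the replicate block or the length term. A single fit of all 10 libraries gave 22 calls, 1 higher and 21 lower. Calls of higher members were 0 at a minimum count of 50 and at a threshold of 0.01, and 1 with the replicate block. Total count scaling moved the TAM median to -0.30, and the sums to -0.35 over all members and to -0.29, -0.34, -0.42, -0.26 and -0.41 for complexes I to V. Leaving out each library gave 43 to 68 calls in TAM (0 to 3 higher, 42 to 68 lower, median -0.26 to -0.15), the most without Shp2f/fLysMcre replicate 1. These counts stand without the share of all genes called in each fit, so they describe the members only.

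In MDSC, where 4.28% of all genes were called, the single call became 2 with DESeq2 (8.48% of all genes) and 3 with the replicate block (2 higher and 1 lower, 18.1% of all genes), and 0 with DESeq2 size factors, total count scaling, without the 20 genes with the most counts, without a count filter and at a threshold of 0.01. Leaving out each library gave 0 to 3 calls (27.2% of all genes without Shp2f/fLysMcre replicate 1) and medians of -0.19 to 0.096; the remaining sample of an arm is then assumed to vary like the others. By the labels, same-numbered MDSC libraries shared only a number. Their deviations from the group means correlated at 0.174 between the genotypes, against -0.083 to 0.064 for same-numbered TAM libraries. Whether they shared more than a number was not tested. The block called 3 members in MDSC and 54 in TAM. Uqcrc2 and Uqcrfs1 in MDSC changed sign under total count scaling (0.024 and 0.041), at a minimum count of 50 (0.0031 and 0.017) and without Shp2f/f replicate 2 (0.0067 and 0.070). Without Shp2f/fLysMcre replicate 1 Uqcrfs1 was 0.025 and Atp5b was -0.083, without replicate 2 Uqcrc2 was 0.072 and Cox4i2 was -0.41, and without Shp2f/f replicate 1 Atp5b was -0.00858. Ndufc2 in TAM was -0.085 under total count scaling, -0.066 without Shp2f/f replicate 1 and -0.032 without Shp2f/fLysMcre replicate 1. Over the libraries left out, these values ran up to 4.19 for Cox4i2, down to -0.14 for Uqcrc2 and up to 0.12 for Atp5b in MDSC, and up to 0.062 for Ndufc2 in TAM. None of these sign changes was in a called value.

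The interaction gave 13 calls and a median of -0.32 under total count scaling, 5 at a minimum count of 50, 6 with the length term, 1 with voom and 0 without a count filter or at a threshold of 0.01. Leaving out each library gave 0 to 30 calls (13.5% to 39.0% of all genes) and medians of -0.28 to 0.026. Between the cell types, the length term gave 42 higher, 23 lower and a median of 0.14, with Ndufa8 at 0.054, Atp5k at 0.11, Cox6a1 at 0.20, Cox6b1 at 0.17, Ndufa11 at 0.053, Ndufa2 at 0.14 and Cox8a at 0.19. Leaving out each library gave 50 to 64 calls, 18 to 33 higher and 31 to 43 lower, with medians of -0.19 to 0.019. The cause of these changes was not tested, and a count given without its share over all genes is not read as particular to the members. Among the values under these alternatives, 162 stayed close to the reported value (medians and sums within 1 SD of the replicates), while 12 medians or sums moved further, 9 counts were larger and 25 smaller. The MDSC median, which is close to 0, changed sign within the spread of the replicates, for example to 0.042 under total count scaling. Limits are the 2 libraries per MDSC genotype, with a biological coefficient of variation of 0.189 against 0.0595 in TAM, the small difference of Ptpn11 between the MDSC genotypes, and the other cell markers that moved with genotype.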
